A study of Homo sapiens with 6 samples.

Results

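The minichromosome maintenance (MCM) family supplies the helicase that unwinds DNA at replication forks. Its 10 human genes MCM2, MCM3, MCM4, MCM5, MCM6, MCM7, MCM8, MCM9, MCM10 and MCMBP were chosen by their symbols. Each symbol matched 1 of the 60617 rows of the deposited count table, and all 10 were among the 18505 genes with enough counts to be tested. The libraries came from A549, an established human lung cancer cell line, grown in culture. A total of 3 libraries were from wild-type A549 cells and 3 from A549 cells carrying a knockout of YTHDF1, a reader protein of N6-methyladenosine in mRNA. No drug or other agent beyond the culture medium is named for either group. The labels call the libraries biological replicates. Nothing says whether they came from separate cultures or from more than 1 knockout clone, so the p-values measure only the spread among these libraries.

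MCM2 to MCM7 are related ATPases that assemble, 1 copy of each, into a ring that is loaded on DNA at replication origins before S phase. The ring is inactive until CDC45 and the GINS complex join it, and it then travels with the fork as the replicative helicase. MCM8 and MCM9 form a separate helicase of recombination and mismatch repair, MCM10 helps to activate the loaded ring and is no ATPase of this kind, and MCMBP binds MCM subunits outside the loaded complex. Genes of the ring are textbook targets of E2F transcription factors and are used as markers of proliferating cells.

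Library totals ran from 27238817 to 40675628 counts. Levels are given in CPM, counts scaled for library size with trimmed mean of M values (TMM) factors. Changes are log2 fold changes of knockout over wild type, and SE is their standard error in the fit. YTHDF1 itself read 98, 104 and 96.4 CPM in wild type and 48.6, 48.6 and 47.1 CPM in the knockout. The targeted gene was thus lower in each knockout library and still read in all of them, and the sources used here do not name its edited exon or site. Among all genes tested, 4865 were lower and 5028 higher in the knockout at an adjusted p under 0.05, and the median change was 0.001 on the log2 scale. The A549 markers KRT8, AKR1B10, ALDH1A1 and 8 more were read in every library and together held 1.32% to 1.38% of wild-type counts and 1.25% to 1.29% of knockout counts. Single markers moved in either direction: by edgeR 3 of the 11 fell and 5 rose, among them AKR1B10, which fell by 1.06, and KRT19, which rose by 0.52.

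The start regions of the MCM genes are shown because 6 of the 8 genes with an entry (all but MCM4 and MCM5) hold a short word of the kind bound by E2F factors. The sequences are RefSeq promoter windows on GRCh38.p14, which run from 250 bases before to 50 bases after an annotated start, with the first transcribed base as position 1. The words searched on both strands were TTTCCCGC, TTTCGCGC, TTTGCCGC and TTTGGCGC. At least 1 of these 4 words occurred in 6 of 11 MCM windows (54.5%) and in 3.31% of all 35116 windows. In the lines that follow, capitals mark the words, or their reverse complement, including overlapping copies.
MCM6, chr2:135876522-135876595, minus strand, positions -152 to -79: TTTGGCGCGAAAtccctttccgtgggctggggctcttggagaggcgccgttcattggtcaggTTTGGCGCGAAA
MCM2, chr3:127598404-127598433, plus strand, positions -7 to 23: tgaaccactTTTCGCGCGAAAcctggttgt
MCM3, chr6:52284898-52284927, minus strand, positions -185 to -156: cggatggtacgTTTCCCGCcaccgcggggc
MCM3, chr6:52284728-52284757, minus strand, positions -15 to 15: agttcggaagtTTTCGCGCcggggtggagt
MCM7, chr7:100101566-100101595, minus strand, positions -198 to -169: cagctcggaccGCGGGAAAcccggcgcctg
MCM7, chr7:100101388-100101417, minus strand, positions -20 to 10: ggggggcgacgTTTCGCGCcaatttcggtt
MCM8, chr20:5950667-5950696, plus strand, positions 16 to 45: ggatcactgaaGCGCCAAAaaagaatttag
MCMBP, chr10:119872834-119872863, minus strand, positions -20 to 10: ggcggcggctaTTTCCCGCcattgtgcgaa

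In MCM6 each copy is a pair of words that overlap on opposite strands, TTTGGCGC read forward and TTTCGCGC read in reverse, and the pair occurs at both ends of the stretch shown. In MCM2 the word TTTCGCGC occurs on both strands and overlaps itself just after the start. The word CCAAT, the core of the site bound by NF-Y, was searched too and occurred in 8 of the 11 MCM windows and in 34.6% of all windows. It was present in MCM3, MCM6, MCM7, MCM8, MCM9 and MCM10, and these letters were not in the MCM2 and MCMBP windows. MCM9 and MCM10 held none of the 4 E2F-type words. A match is a description of letters and no measure of binding. The RefSeq starts of MCM2, MCM3, MCM7, MCM9, MCM10 and MCMBP used for these windows lie inside the GENCODE genes. For MCM9 and MCM10 the offset is a few bases only. For MCMBP the windows, chr10:119872794-119873093 and chr10:119873532-119873831, lie far inside the gene, whose GENCODE start is at 119892556. Distances to neighbouring genes are taken from the GENCODE starts. The E2F-type word was present both in genes that were lower in the knockout and in MCMBP, which was higher.

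RNA of all 6 ring subunits was lower in the YTHDF1 knockout, MCM6 most and MCM3 least. MCM8, MCM9 and MCM10 were lower too, and MCMBP was slightly higher. Of the 10 genes, 9 fell and 1 rose at an adjusted p under 0.05, where 26.3% of all tested genes were called lower and 27.2% higher. The lowest wild-type library was above the highest knockout library for 9 of the 10, a separation seen in 29.1% of all tested genes. For MCMBP the order was the opposite one, seen in 29.8% of all tested genes. The median log2 fold change was -0.98 over the 6 ring genes and -0.76 over all 10. In bulk RNA, fewer cells in a phase of the cell cycle and less RNA per cell cannot be told apart.

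**Figure D1:**
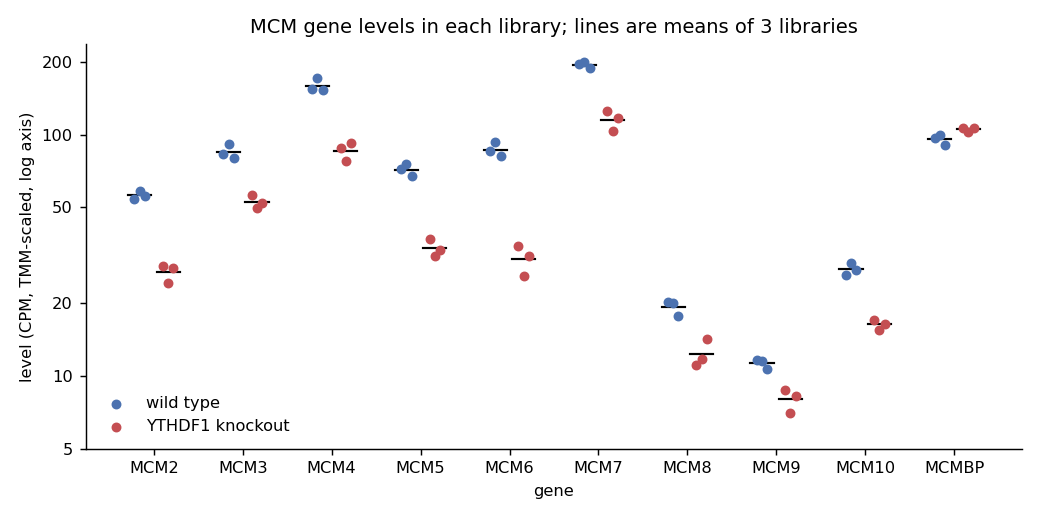
Level of each MCM gene in each library, in TMM-scaled CPM on a log axis, with wild type in blue and YTHDF1 knockout in red and a line at the mean of 3 libraries. For MCM2 to MCM10 every wild-type point lies above every knockout point, and for MCMBP the knockout points lie slightly above the wild-type points.

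MCM6, at chr2:135839626-135876426 on the minus strand, encodes a ring subunit that also takes part in binding the loading factor CDT1. It read 85.4, 93.1 and 81.3 CPM in wild type and 34.5, 26.1 and 31.4 CPM in the knockout. The lowest wild-type library was thus more than 2 times the highest knockout library. MCM6 fell by 1.5 on the log2 scale (SE 0.0718), to 35.4% of the wild-type level, with an adjusted p of 2.09e-18 by the quasi-likelihood test of edgeR. Only 1.78% of all tested genes fell further. Its 95% interval, -1.65 to -1.35, did not overlap that of any other MCM gene.

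MCM5 and MCM2 followed with closely similar changes, and the proteins they encode are neighbours in the ring at the gate that opens for DNA to enter. MCM5, at chr22:35400063-35425430 on the plus strand, read 72.1, 75.6 and 67.2 CPM in wild type and 37, 31.6 and 33.2 CPM in the knockout. MCM2, at chr3:127598223-127622436 on the plus strand, read 54.2, 58.7 and 55.7 CPM in wild type and 28.7, 24.3 and 28.1 CPM in the knockout. Both genes were close to a 2-fold difference between the groups, with no overlap. MCM5 fell by 1.08 (SE 0.0641, adjusted p 6.9e-16) and MCM2 by 1.06 (SE 0.0682, adjusted p 6e-15), both by edgeR. A total of 4.24% of tested genes fell further than MCM5 and 4.56% further than MCM2.

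MCM4, MCM7 and MCM3 had the smaller fold changes of the ring, though the 95% interval of MCM4, -1.01 to -0.78, overlapped those of MCM5 and MCM2. MCM4 and MCM7 encode subunits that, with MCM6, form a subcomplex long known to unwind DNA on its own in the test tube. MCM4 read 155, 171 and 153 CPM in wild type and 87.7, 77.5 and 92 CPM in the knockout. It fell by 0.90 (SE 0.0551), from 160 ± 9.71 to 85.7 ± 7.48 CPM (SD, n = 3), with an adjusted p of 1.75e-15 by edgeR. All 3 knockout libraries were well under the lowest wild-type library.

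MCM7, at chr7:100092728-100101940 on the minus strand, read 196, 201 and 189 CPM in wild type and 125, 104 and 117 CPM in the knockout. It fell by 0.76 (SE 0.0522), with an adjusted p of 2.96e-14 by edgeR. MCM3, at chr6:52264009-52284881 on the minus strand, lies next to MCM5 in the ring. It read 83.3, 91.6 and 80.2 CPM in wild type and 56.5, 49.5 and 52.2 CPM in the knockout, so 62% of the wild-type level was left. The fall of 0.69 (SE 0.059, adjusted p 6.89e-12 by edgeR) was the smallest estimate in the ring, with an interval of -0.81 to -0.57 that overlapped that of MCM7, and 10.8% of all tested genes fell further.

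**Figure D2:**
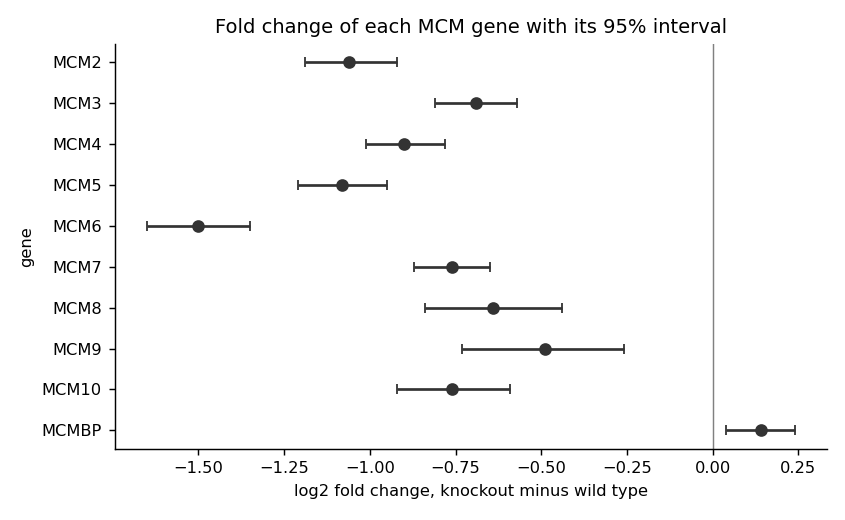
Log2 fold change of each MCM gene, knockout minus wild type, with its 95% interval from the fit to 3 libraries per group. MCM6 lies apart on the left, MCM2 and MCM5 lie near -1.06 and -1.08, and MCMBP is the gene to the right of 0.

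The ring holds 1 copy of each subunit, so the make-up of its RNA pool was compared as well. The 6 genes together read 645, 691 and 626 CPM in wild type and 369, 313 and 354 CPM in the knockout. Each gene's share of the pool was computed from counts per kb of its exons. MCM6 made up 15.8%, 16.1% and 15.5% of the pool in wild type and 11.1%, 9.93% and 10.6% in the knockout, a difference of -5.29 percentage points. The groups are far apart beside their spread of 0.298 and 0.572 points (SD, n = 3).

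Shares of a pool sum to a fixed total, so a drop in 1 gene raises others. The shares that were higher in the knockout were those of MCM7 and MCM3. MCM7 took 33.5% ± 0.709 of the pool in wild type and 37.2% ± 0.257 in the knockout (SD, n = 3). MCM3 took 17.5% ± 0.325 and 20.5% ± 0.69. MCM2 moved from 8.63% ± 0.266 to 7.81% ± 0.119 and MCM5 from 7.34% ± 0.147 to 6.55% ± 0.253. These 5 shares did not overlap between the groups, whereas that of MCM4, 17.2% ± 0.274 and 17.4% ± 0.839, did. A two-sided exact permutation test gave p = 0.1 for each of the 5, the smallest that 3 against 3 libraries can give, and 0.12 adjusted over the 6 shares. For MCM4 the exact permutation p was 0.8, and the sign of its difference turned when knockout replicate 3 was left out.

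**Figure D3:**
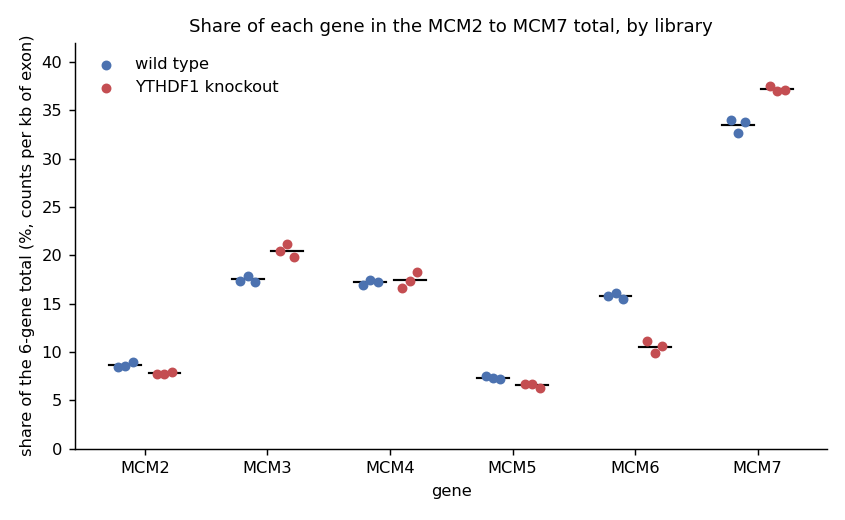
Share of each ring gene in the summed MCM2 to MCM7 counts per kb of exon, in percent, for each library, with a line at the mean of 3 libraries per group. The shares of MCM6 drop from between 15.5% and 16.1% to between 9.93% and 11.1%, and those of MCM3 and MCM7 are higher in all 3 knockout libraries.

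Within each group the ring genes also ranked the libraries mostly alike. Wild-type replicate 2 was the highest wild-type library for 6 of 6 ring genes, and knockout replicate 2 was the lowest knockout library for 6 of 6. Wild-type replicate 3 was the lowest of its group for 5 of 6, all but MCM2. The highest knockout library was replicate 3 for MCM4 and replicate 1 for the other ring genes. Among the other 4 members, wild-type replicate 2 was highest for 2 and knockout replicate 2 lowest for 3. These orders describe single libraries, and replicates of a group have no order of their own. The share of all tested genes with the same orders was not computed, so nothing is read from them about the ring.

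MCM8 and MCM9, which form a helicase used in homologous recombination and in mismatch repair, were the members with the lowest counts. MCM8, at chr20:5950652-5998977 on the plus strand, read 20.3, 20.1 and 17.7 CPM in wild type and 11.1, 11.8 and 14.2 CPM in the knockout. MCM9, at chr6:118813442-118935162 on the minus strand, read 11.7, 11.5 and 10.7 CPM in wild type and 8.73, 7.06 and 8.28 CPM in the knockout. Neither gene overlapped between the groups, and the distance between them was smaller than for any ring gene. MCM8 fell by 0.64 (SE 0.0996, adjusted p 1.7e-06) and MCM9 by 0.49 (SE 0.116, adjusted p 0.000519), both by edgeR. Their standard errors are the largest of the family, as MCM9 rested on 282 to 444 counts per library.

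MCM10, at chr10:13161554-13211104 on the plus strand, encodes a DNA-binding factor needed for the loaded ring to start unwinding. It read 26.2, 29.5 and 27.6 CPM in wild type and 17.1, 15.6 and 16.5 CPM in the knockout. It fell by 0.76 (SE 0.0812), with an adjusted p of 1.16e-09 by edgeR. The groups were well apart, and its fall was the size of that of MCM7.

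MCMBP, at chr10:119829404-119892556 on the minus strand, encodes a binding protein of MCM subunits with parts in their assembly and in unloading. It read 96.6, 100 and 90.5 CPM in wild type and 107, 103 and 107 CPM in the knockout. All 3 knockout libraries were above the wild-type libraries, by a small step. MCMBP rose by 0.14 (SE 0.0493, 95% interval 0.04 to 0.24), with an adjusted p of 0.0138 by edgeR. Without wild-type replicate 3 the difference was 0.11 with an adjusted p of 0.114 by edgeR, so the call rests on that library.

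The relation of MCMBP to the ring genes shifted more than its own level. The ratio divides by the ring sum, whose fall is given above, so it is no separate result about MCMBP. Its CPM was 15%, 14.5% and 14.4% of the summed CPM of MCM2 to MCM7 in wild type and 28.9%, 33% and 30.2% in the knockout. That ratio was 2.1 times as high in the knockout, with a two-sided exact permutation p = 0.1, the smallest possible here, and 0.133 adjusted over the 4 genes compared in this way. The same ratio was 1.34 times as high for MCM9 and 1.12 times as high for MCM10, without overlap (exact permutation p = 0.1 and 0.133 adjusted for each). For MCM8 it was 1.22 times as high, and the groups overlapped (exact permutation p = 0.2, also 0.2 adjusted). MCM8, MCM9 and MCM10 thus kept a ratio to the ring genes much nearer to that of wild type than MCMBP did.

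Levels per length put the genes on a scale on which they can be compared with each other. In CPM per kb of exon, MCM7 was highest in wild type at 44.5 ± 1.41 (SD, n = 3), followed by MCM3 at 23.3 ± 1.61, MCM4 at 22.9 ± 1.39 and MCM6 at 21 ± 1.45. MCM3 and MCM4 overlapped over their libraries, and so did MCM4 and MCM6. MCMBP came next at 16 ± 0.815, then MCM2 at 11.5 ± 0.46 and MCM5 at 9.76 ± 0.577. MCM10 at 5.09 ± 0.304, MCM8 at 2.51 ± 0.189 and MCM9 at 0.904 ± 0.0443 were the lowest, and every pair of neighbours from MCM6 down was separated in all libraries.

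In the knockout MCMBP moved from rank 5 to rank 2 on this scale, at 17.6 ± 0.348 CPM per kb of exon, behind MCM7 at 26.3 ± 2.42. MCM6 stood at 7.45 ± 1.03, below MCM3 at 14.5 ± 0.977 and MCM4 at 12.3 ± 1.07 without overlap, where in wild type it had overlapped MCM4. MCM2 at 5.52 ± 0.487 and MCM5 at 4.62 ± 0.38 overlapped. The highest ring gene was 4.56 times the lowest in wild type and 5.68 times in the knockout. Lengths depend on the annotation. With the longest coding transcript in place of all exons, the wild-type order began MCM7, MCM4, MCM3. On this scale MCM2 had the lowest mean of the ring genes in both groups, though in the knockout its libraries overlapped those of MCM6. MCMBP again had rank 2 in the knockout. On that scale MCM4 at 38.2 ± 2.32 did not overlap MCM6 at 23.2 ± 1.6 in wild type either, so their overlap depends on the length used.

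By GENCODE gene starts, several MCM genes start close to a gene on the other strand. MCM4, at chr8:47960185-47978160 on the plus strand, starts 2 bases from PRKDC, which encodes the catalytic subunit of the DNA-PK repair kinase. PRKDC read 877, 872 and 889 CPM in wild type and 308, 290 and 310 CPM in the knockout. It fell by 1.54 (SE 0.0403, adjusted p 9.1e-26 by edgeR), more than MCM4, and the 95% intervals of the pair did not overlap. MCM7 starts 391 bases from AP4M1, a subunit of the AP-4 adaptor complex of vesicle traffic. AP4M1 read 17, 18.8 and 17.7 CPM in wild type and 14.2, 15.2 and 13.5 CPM in the knockout, a fall of 0.32 (SE 0.0914, adjusted p 0.00368 by edgeR).

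The partner of MCM2 went the other way. TPRA1, which encodes a membrane protein and starts 44 bases from MCM2, read 32.7, 29.5 and 36.9 CPM in wild type and 79, 75.7 and 73.9 CPM in the knockout. It rose by 1.2 (SE 0.0656, adjusted p 7.34e-17 by edgeR) while MCM2 fell by 1.06, so each of the 2 moved about 2-fold in opposite directions. TRMT6, a subunit of a tRNA methyltransferase, starts 94 bases from MCM8 and read 36.1 ± 2.64 and 40.2 ± 2.53 CPM (SD, n = 3). Its difference of 0.16 missed the threshold, with an adjusted p of 0.0536 by edgeR and an interval of 0.02 to 0.30. SEC23IP, a factor of the secretory pathway, starts 155 bases from the GENCODE start of MCMBP. The RefSeq starts of MCMBP lie far from that start, so a shared start region holds for the GENCODE annotation only. SEC23IP differed by 0.05, with an interval of -0.05 to 0.14 and an adjusted p of 0.42 by edgeR. The partner of MCM9, ENSG00000253194, had 2 counts over all 6 libraries and was not tested.

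**Figure D4:**
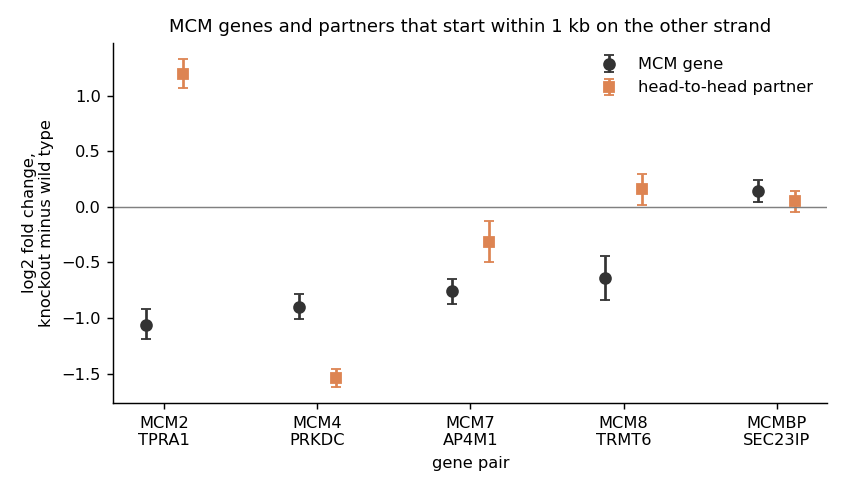
Log2 fold change, knockout minus wild type, of 5 MCM genes (circles) and of their partners on the other strand (squares), with 95% intervals. Partners start within 1 kb by GENCODE gene starts. MCM2 and TPRA1 lie on opposite sides of 0, MCM4 and PRKDC both lie well below it, and SEC23IP lies near 0.

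Exons shared with other genes limit 3 of the rows, since the sources used here do not state the strand setting of the counting. Of the exon bases of MCM2, 22.7% overlap ENSG00000285600 on the other strand, a row with 13 counts over all 6 libraries, and 0.918% overlap TPRA1. AP4M1 overlaps 8.94% of the exon bases of MCM7, and ASF1A, a histone chaperone, overlaps 1.1% of those of MCM9. The hairpin genes MIR106B, MIR93 and MIR25 lie in introns of MCM7 and share no exon base with it. MIR25 read 1, 1 and 1.02 CPM in wild type and 0.619, 0.686 and 0.59 CPM in the knockout, and its difference of -0.67 missed the threshold (adjusted p 0.142 by edgeR). MIR93 differed by -1.61 on 0 to 14 counts per library (adjusted p 0.0591 by edgeR), and MIR106B had too few counts to be tested. These rows do not measure mature miRNA.

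Genes listed under origin licensing, the loading of the ring at origins, had a smaller median change than the ring, a difference that was not tested. Of 10 origin licensing genes 6 were lower and 1 was higher, with a median of -0.32 on the log2 scale. This count and those of the lists that follow stand beside 26.3% lower and 27.2% higher among all genes tested, with a median of 0.001. The loading factors CDT1 and CDC6 had the largest falls. CDT1 fell by 0.84 (SE 0.0768), from 31.9 ± 1.61 to 17.8 ± 0.603 CPM, and CDC6 fell by 0.82 (SE 0.0796), from 42.9 ± 3.15 to 24.3 ± 3.1 CPM (SD, n = 3). The origin recognition complex was mixed. ORC2 fell by 0.65, from 47 ± 0.776 to 29.9 ± 1.66 CPM, and ORC4 rose by 0.54, from 35 ± 1.9 to 50.8 ± 3.5 CPM. The difference for ORC6 was 0.16, with an adjusted p of 0.0779 by edgeR.

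Of 13 genes that turn the loaded ring into a working helicase, 9 were lower and 1 was higher, with a median of -0.31. CDC45, which joins the ring, fell by 0.83 (SE 0.11), from 16.8 ± 2.86 to 9.38 ± 0.252 CPM, and the GINS subunit GINS2 fell by 0.90 (SE 0.109), from 15.6 ± 1.6 to 8.35 ± 0.656 CPM (SD, n = 3). The GINS complex was mixed. GINS4 fell by 0.55, whereas GINS1 at -0.07 and GINS3 at -0.03 missed the threshold (adjusted p 0.386 and 0.837 by edgeR). TOPBP1, a scaffold of helicase assembly, fell by 0.68 and DONSON, which delivers GINS, by 0.67. The gene that rose was DBF4B, a regulatory subunit of the CDC7 kinase that phosphorylates MCM proteins. It rose by 0.41, from 30.1 ± 1.85 to 39.8 ± 0.878 CPM, and was singled out after its value was seen.

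Of 9 genes of the fork protection group, which holds proteins that travel with the helicase, 8 were lower by edgeR, with a median of -0.51. MMS22L, a recombination factor at stalled forks, fell by 1.02 (SE 0.0914), from 26.7 ± 2.58 to 13.1 ± 1.25 CPM, and WDHD1, which links the helicase to polymerase alpha, fell by 0.93 (SE 0.0779), from 35.5 ± 2.9 to 18.7 ± 0.946 CPM (SD, n = 3). The checkpoint mediator CLSPN fell by 0.65 and its partner TIMELESS by 0.54. CHTF8, at -0.23, was the gene that missed the threshold.

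Unloading of the ring at the end of replication runs through a ubiquitin ligase and the VCP unfoldase. Of these 8 helicase disassembly genes 2 were lower and 1 was higher, with a median of -0.18. The share of lower genes lies near the 26.3% of all genes tested, and that of higher genes is below their 27.2%. VCP fell by 0.32, from 651 ± 14.6 to 521 ± 19.4 CPM, and FAF1, a VCP cofactor, by 0.31. NPLOC4, another VCP cofactor, rose by 0.32, from 292, 295 and 292 CPM in wild type to 363, 368 and 369 CPM in the knockout. LRR1, which recognises MCM7 for the ligase, differed by -0.27, with an adjusted p of 0.0611 by edgeR and overlapping groups.

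Partners of the MCM8 and MCM9 helicase in recombination and mismatch repair numbered 6, of which 5 were lower, with a median of -0.37. MSH3, which recognises insertion and deletion loops, fell by 0.41 and PMS1 by 0.40. The partner that missed the threshold was HROB, which loads and activates the MCM8 and MCM9 helicase. It read 7.92 ± 0.809 and 7.44 ± 0.456 CPM (SD, n = 3), a difference of -0.09 with an adjusted p of 0.582 by edgeR.

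Behind the helicase, 15 of 23 genes of the polymerases, the clamp and its loader were lower and 4 were higher, beside 26.3% and 27.2% of all genes tested, with a median of -0.34. POLD2, a subunit of polymerase delta, fell by 1.01 (SE 0.056), from 90.8 ± 1.71 to 45.1 ± 3.01 CPM, and POLA1, the catalytic subunit of polymerase alpha, fell by 1.00 (SE 0.074), from 37.7 ± 1.19 to 18.9 ± 1.13 CPM (SD, n = 3). The single-strand binding subunit RPA1 rose by 0.57, from 54 ± 3.43 to 80.1 ± 0.887 CPM. Of the other RPA subunits, RPA2 rose by 0.23 and RPA3 fell by 0.77 (adjusted p 0.00827 and 1.87e-08 by edgeR). PCNA, the sliding clamp and a known p53 target, read 186, 192 and 189 CPM in wild type and 377, 328 and 344 CPM in the knockout. It rose by 0.89, so the clamp and the ring moved in opposite directions. Of 6 histone chaperones at the fork 5 were lower and 1 was higher, with a median of -0.72. CHAF1A fell by 0.84, SSRP1 by 0.73 and SUPT16H by 0.39, and ASF1A rose by 0.59, from 15.9 ± 1.38 to 24.1 ± 1.21 CPM.

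Transcription factors known to act on MCM promoters had a median nearer to that of all genes. Of 14 E2F, RB and MYC regulators 6 were lower and 3 were higher, beside 26.3% and 27.2% of all genes tested, with a median of -0.18. The count of higher genes is no more than the share of all genes would give, so nothing is read from it about the group. E2F8, a repressor of the family, fell by 1.29 (SE 0.223), from 4.53 ± 0.611 to 1.83 ± 0.675 CPM (SD, n = 3). TFDP2, a dimer partner of E2F factors, fell by 0.49. E2F5 rose by 0.65, from 14.1 ± 1.33 to 22 ± 1.26 CPM, and E2F6 rose by 0.45, from 40.9 ± 2.2 to 55.8 ± 2.95 CPM. As background, both are classed as repressors. E2F1 fell by 0.4, from 27.6 ± 3.51 to 20.8 ± 1.88 CPM (SD, n = 3), with an adjusted p of 0.000203 by edgeR. E2F2 differed by -0.7 and E2F3 by 0.04 (adjusted p 0.0971 and 0.668 by edgeR), with overlapping groups for each. The levels of MYC were 192 ± 0.912 and 184 ± 5.47 CPM, a difference of -0.06 with an adjusted p of 0.257 by edgeR.

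**Figure D5:**
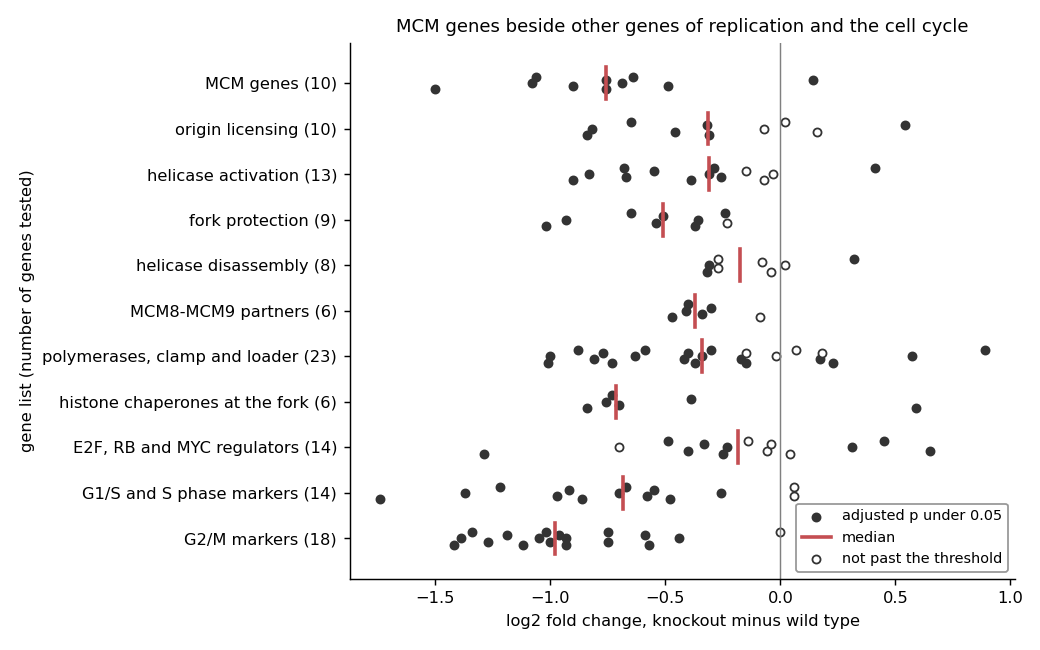
Log2 fold change, knockout minus wild type, of each tested gene in 11 lists, 1 point per gene, with filled points past an adjusted p of 0.05 in edgeR and a red line at the median of each list. The medians of the MCM genes (-0.76) and of the G2/M markers (-0.98) lie to the left of those of origin licensing (-0.32) and helicase activation (-0.31).

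Most of the listed markers of proliferating cells were lower beside the MCM genes, whereas PCNA, given above with the polymerases, rose by 0.89. Of 14 markers of G1/S and S phase 12 were lower by edgeR, beside 26.3% of all genes tested, with a median of -0.68, and of 18 markers of G2 and mitosis 17 were lower, with a median of -0.98. The median of the ring genes was also -0.98. The 13 mitochondrially encoded mRNAs were all lower, with a median of -0.55, and their share of counts was 5.76% to 5.92% in wild type and 3.72% to 3.98% in the knockout. Of 11 markers of other cell types 3 had enough counts to be tested, of which CD14 and COL3A1 were lower and COL1A1 was higher. In wild type and knockout, COL1A1 averaged 29.8 and 41.9 CPM, CD14 11.1 and 3.45 CPM, and COL3A1 1.37 and 0.567 CPM. The 11 together held 0.004% to 0.00458% of counts in wild type and 0.00446% to 0.0049% in the knockout. CD3E was at 0 in all 6 libraries and PTPRC, the pan-leukocyte marker, reached at most 0.183 CPM. The part of cell cycle phase and of RNA quality in the fall of the MCM genes was not tested.

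The genes with profiles most like the mean of the 6 ring genes were sought by the Euclidean distance between log2 CPM profiles over the 6 libraries, each centred on its mean. With 11125 candidates that averaged 5 CPM or more, the nearest was CDC20, an activator of the anaphase-promoting complex, at a distance of 0.0879. CDC20 read 53.2, 55.2 and 48.8 CPM in wild type and 26.9, 24 and 26.6 CPM in the knockout. Like the ring genes, it was highest in wild-type replicate 2 and lowest in knockout replicate 2. CDC20 was picked by its profile over these libraries, so the shared order is no separate result. PLK1, a mitotic kinase, followed at 0.107 and CYB5B, a cytochrome b5 of the outer mitochondrial membrane, at 0.115. MRPS34, a mitochondrial ribosomal protein, came at 0.118, and the spindle checkpoint kinase BUB1B and the calpain CAPN5 at 0.123 each.

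On that measure the family members themselves were spread widely. MCM2 was at 0.101 and MCM5 at 0.133 from the mean of the ring genes, of which both are part. MCM6 was at 0.628, farther than MCM10 at 0.32, which is not part of the ring, and MCMBP was farthest at 1.41. The distance is dominated by the difference between the groups, so it mostly ranks genes by how near their fall was to that of the ring.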

How the data were processed

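The authors deposited a table of whole-number read counts per gene for 6 libraries, made from total RNA with a stranded TruSeq kit, per the labels' protocols. Per the submitters' processing notes, the tools were STAR 2.7.0d, Trim Galore 0.6.6, edgeR 3.32.1 and featureCounts 2.0.1, on GRCh38. The sources used here do not give the annotation, the strand setting or the treatment of multimapping reads. Groups came from the sample titles. Genes kept by filterByExpr were fitted with edgeR 4.0.16 in R 4.3.3 (TMM factors, quasi-likelihood test, genotype alone as a term), with Benjamini-Hochberg adjustment over all 18505 genes, with a threshold of 0.05. The script was tested on simulated counts. Replicates differed beyond sampling noise, so all 6 libraries were kept. Gene and exon coordinates are GENCODE 29 on GRCh38, which may differ from the annotation counted on.

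The members and lists were chosen with earlier results of these data known. Named genes are the members, YTHDF1, the 4 genes of each pathway list with the smallest adjusted p, genes head to head within 1 kb or overlapping in exons, and the 6 nearest profiles. Of these, 2 genes are not reported here. ORC6, DBF4B, CHTF8, HROB, E2F1, E2F2, E2F3, MYC, the markers and the hairpin genes within MCM7 were named after their values were seen. The same holds for GINS1, GINS3, GINS4, RPA2 and RPA3. Alternatives were DESeq2 1.42.0, limma-voom (limma 3.58.1), RLE factors, library size only, other count filters, a replicate block, an adjusted p threshold of 0.01 and leaving out each library. The use of the longest coding transcript and the leave-one-out ratios to the ring genes were chosen after seeing the data.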

Additional observations from a re-analysis of the deposited data

How the results depend on the processing

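The count of 9 lower MCM genes was obtained under all 14 alternatives run on it, and the direction and call of each gene from MCM2 to MCM10 held in 14 of 14. MCM6 ranged from -1.59 to -1.39 on the log2 scale and MCM9 from -0.56 to -0.41, with an adjusted p of at most 0.00893 for MCM9. The count of higher MCM genes, which is MCMBP alone, was 1 with all libraries and between 0 and 1 when single libraries were left out, with 0 without wild-type replicate 3. It was also 0 at a stricter adjusted p threshold of 0.01, as the adjusted p of MCMBP was 0.0138. MCMBP ranged from 0.11 to 0.17, with adjusted p-values from 0.00414 to 0.114. The share of MCM4 in the ring pool turned to -0.217 percentage points without knockout replicate 3 and ranged from -0.217 to 0.621 when each library was left out, and the cause was not tested. Same-numbered wild-type and knockout libraries did not deviate together (correlations -0.0459, -0.0147 and 0.0592). Unlike-numbered pairs ranged from -0.0762 to 0.0812. No pairing by replicate number was thus seen, though 3 libraries a group cannot show that none existed. With the replicate block, edgeR called 9703 genes in place of 9893, with 9 MCM genes lower and 1 higher. Precision is limited by 3 libraries a group and by 282 to 444 counts a library for MCM9.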
